A study of Mus musculus with 8 samples.

Results

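The genes of mitosis and of the G2 phase that precedes it were examined in activated muscle stem cells (ASCs), the satellite cells of skeletal muscle after they have left quiescence and entered the cell cycle. The set holds 44 genes, chosen by name for their roles in cell division, and all 44 were among the 18877 gene symbols measured. RNA came from ASCs of injured mouse tibialis anterior, sorted 2 days after BaCl2 as CD34-, DAPI- cells that carried the mitochondrial Dendra2 protein. Both groups, 4 wild-type and 4 mfn2-/- libraries, came from tamoxifen-treated mice with the Pax7-CreERT2 driver, which acts in Pax7-expressing satellite cells, and the mfn2-/- group also carried floxed Mfn2, the gene of mitofusin 2, an outer mitochondrial membrane protein that joins mitochondria. The labels give neither the age nor the sex of the animals, nor whether a library came from 1 mouse or from a pool, so p-values measure the spread between libraries only.

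Cells enter mitosis when cyclin B with the kinase CDK1 is switched on by CDC25 phosphatases. The chromosomes then condense, kinetochores attach them to a spindle of microtubules, a checkpoint holds the cell until all are attached, and the anaphase-promoting complex (APC/C) releases them before cytokinesis cleaves the cell. Transcripts of these proteins are made in G2 and lost after division, so that they mark dividing cells in a tissue. Satellite cells are quiescent in uninjured muscle and divide in the days after injury.

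Values are normalized reads, that is, reads divided by a size factor of each library, and 1 read was worth between 0.534 normalized reads in wild-type replicate 4 and 2.27 in wild-type replicate 1. Wild-type replicates 1 to 4 held 1880464, 4080836, 4963593 and 7508215 reads, and mfn2-/- replicates 1 to 4 held 6199866, 5115404, 5050798 and 2269009. The libraries were also of a pair of kinds in each group: of the genes Kdm5d, Uty, Eif2s3y and Ddx3y on the Y chromosome, 807 to 2336 reads were found in wild-type replicates 3 and 4 and in mfn2-/- replicates 1 and 2, and 0 in the remaining 4 libraries. The X-linked transcript Xist gave 6454, 8034, 124 and 145 normalized reads in wild-type and 0, 4.74, 2862 and 2501 in mfn2-/- replicates 1 to 4. In each genotype it was higher without Y-linked reads, and wild-type replicates 3 and 4 held both Xist and Y-linked reads. Genotype differences were also taken within each kind, with 2 libraries per group. This split was chosen with earlier results known, in which cell cycle genes did not move alike in both kinds. Its p-values for these genes therefore come from the same data that prompted it. In each genotype the kind coincides with the libraries numbered 1 and 2 or 3 and 4, so the presence of Y-linked reads and any other difference between these libraries cannot be told apart. One library stood apart by the number of genes detected, with 9646 in mfn2-/- replicate 4 against 12613 to 15270 in the others. Mfn2 gave 243, 245, 202 and 228 normalized reads in the wild-type and 104, 118, 172 and 109.95 in the mfn2-/- libraries, without overlap (exact permutation p = 0.0286, two-sided, the smallest that 4 against 4 libraries can give), and its limma adjusted p was 0.0848.

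Few of the 44 genes were abundant. The median level of all 44 over the 8 libraries was 21.4 normalized reads. The genes tested were the 11754 with a mean of at least 10. Their median was 89.6, which leaves out all genes below that minimum and so is not a like comparison. A mean of at least 50 was reached by 10 of the 44 members and by 7640 of all 18877 genes. Of the members 30 were tested and 14 lay below the minimum of 10, 31 were at 0 in at least 1 library, and 10 had more than 3 reads in each of the 8. The 5 most abundant members, Smc4, Mki67, Hmgb2, Top2a and Racgap1, carried 58.1% of the summed level. Per kilobase of exon the order began with the chromatin protein gene Hmgb2 at 95.98 normalized reads per kb, followed by the condensin gene Smc4 at 79.5 and by Mki67 at 33.7, and it ended with Ube2c and Cdc25c, which had 0 reads in 7 of the 8 libraries.

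Summed over the 44 genes, the level was about the same in the 2 genotypes and differed more than 2-fold between the libraries of each. The wild-type libraries gave sums of 1567, 1240.3, 3229.9 and 2805 normalized reads, and the mfn2-/- libraries 1185, 1239.6, 3381 and 2961. In both genotypes replicates 3 and 4 lay above replicates 1 and 2, with a ratio of the means of 2.15 in wild-type and 2.62 in mfn2-/- ASCs, whereas the ratio of the mfn2-/- mean to the wild-type mean was 0.992. Since wild-type replicates 3 and 4 are of the kind with Y-linked reads and mfn2-/- replicates 3 and 4 of the kind without, the mfn2-/- mean was 0.402 of the wild-type mean among libraries with these reads and 2.26 times the wild-type mean among those without. In these bulk samples fewer dividing cells and less RNA per dividing cell cannot be told apart.

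**Figure D1:**
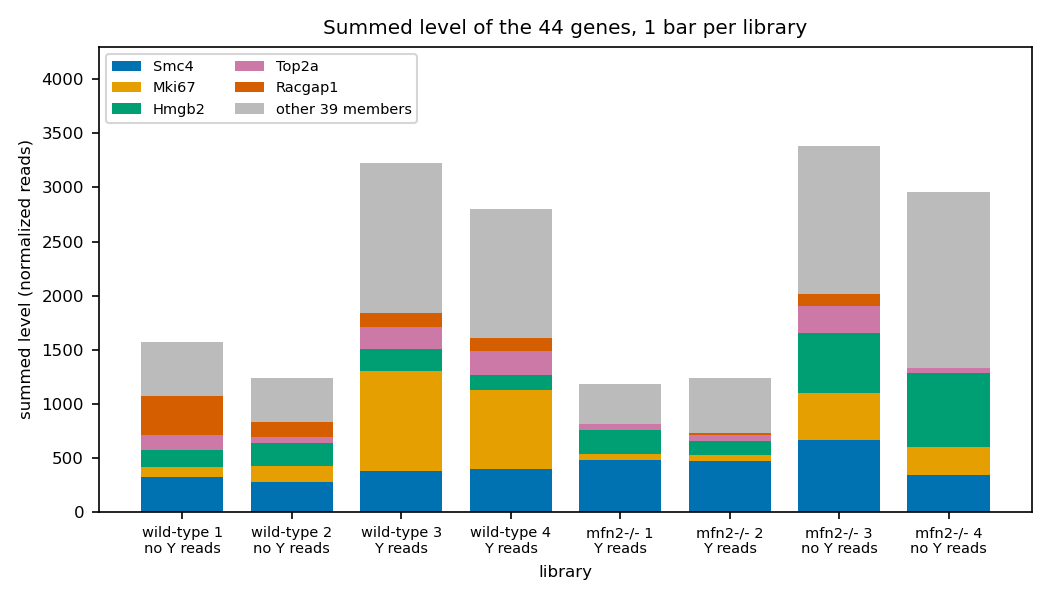
Summed level of the 44 genes in normalized reads (vertical axis), with 1 bar per library and the 5 most abundant members in colour. In each genotype the bars of replicates 3 and 4, between 2805 and 3381, stand above those of replicates 1 and 2, between 1185 and 1567.

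The same order of libraries appeared in most of the working parts of mitosis. When the members were summed by role, replicates 3 and 4 lay above replicates 1 and 2 in both genotypes for 7 of 10 roles, namely the cyclin-CDK engine, the spindle checkpoint, the kinetochore, the chromosomal passenger complex, the mitotic kinesins, the spindle microtubule proteins and the chromosome structure proteins. The APC/C genes and the transcription factor Foxm1 showed it in neither genotype, and the cytokinesis genes only among the mfn2-/- libraries. Among single tested members, replicates 3 and 4 were both above replicates 1 and 2 for 19 of 30 in wild-type ASCs, where this held for 24.3% of all tested genes, for 17 of 30 in mfn2-/- ASCs (18.8% of all), and for 10 of 30 in both (4.33% of all).

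**Figure D2:**
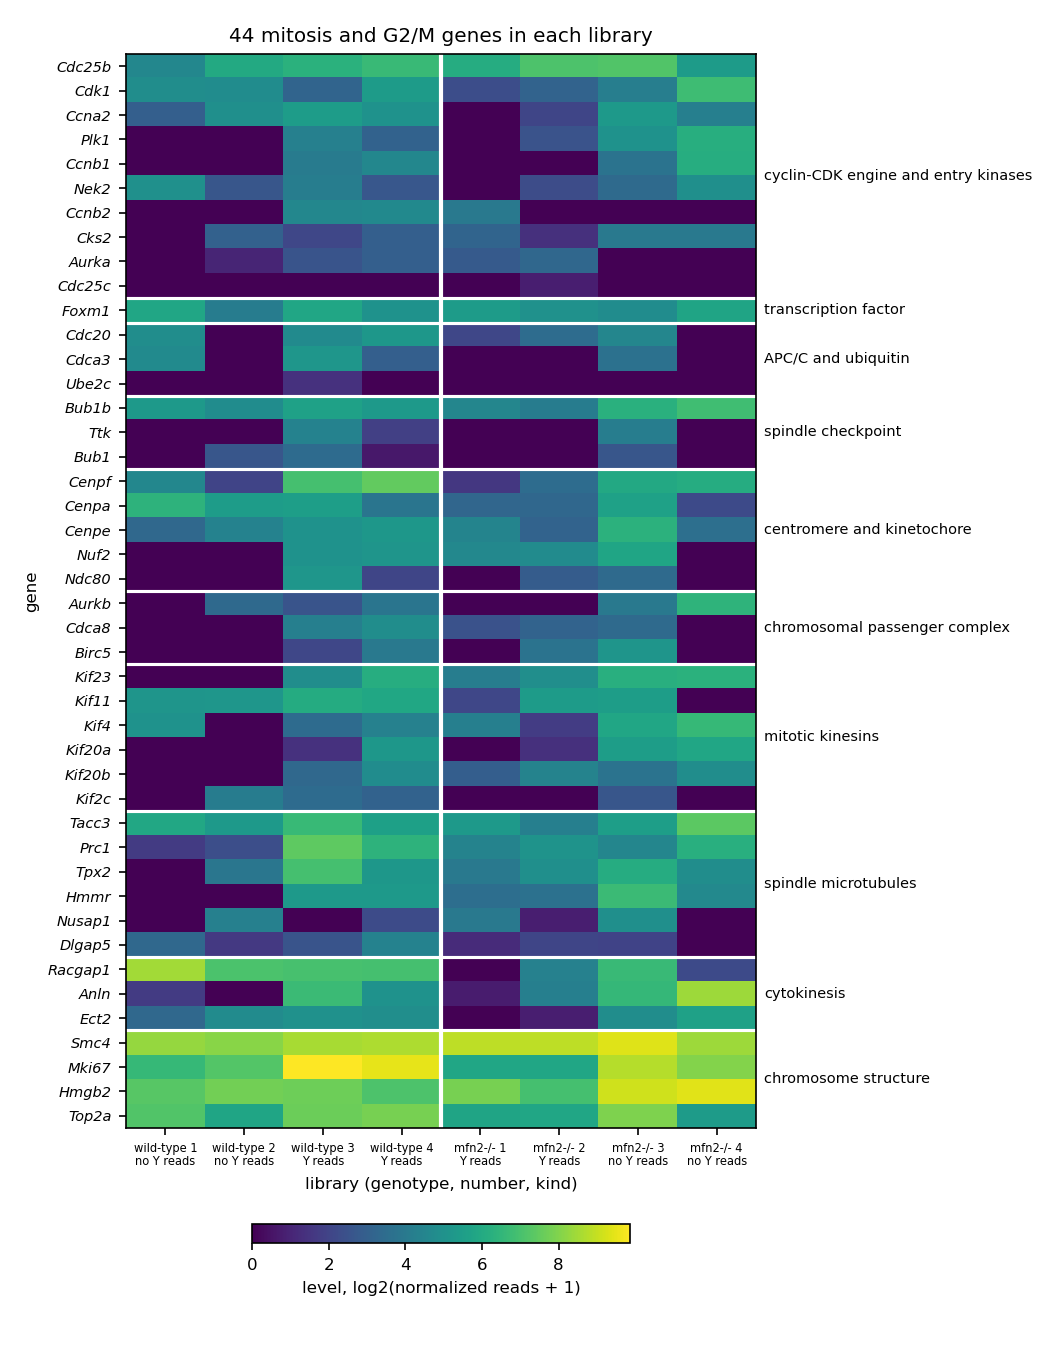
Level of each of the 44 genes (rows, grouped by role) in each library (columns), as log2(normalized reads + 1), with darkest cells at 0. Wild-type replicates 1 and 2 hold 21 and 18 members at 0, wild-type replicates 3 and 4 hold 2 each, and mfn2-/- replicates 1 to 4 hold 16, 8, 4 and 16. Read totals differ between the libraries, so a value of 0 does not show that the transcript was absent.

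Compared across all 4 libraries per group, 1 of the 30 tested members passed the test between genotypes, Racgap1, which was lower in mfn2-/- ASCs. Of all 11754 genes tested, 1217 passed (10.4%), 469 higher (3.99%) and 748 lower (6.36%). The members' median difference was 0.17 on the log2(normalized reads + 1) scale, with 17 of 30 positive, beside -0.16 for all tested genes, and without Racgap1 and Mki67 the members' differences ran from -2.31 to 2.66 with adjusted p between 0.249 and 0.986. Racgap1 was the single member of the 44 whose groups did not overlap, and such a separation held for 19.5% of all tested genes.

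Racgap1 (GENCODE M21, GRCm38, chromosome 15, 99620496 to 99651656, minus strand) encodes the GTPase-activating subunit of centralspindlin, which sets the cleavage plane in cytokinesis. It gave 357, 135, 127 and 123 normalized reads in the wild-type and 0, 19.0, 103 and 3.67 in the mfn2-/- libraries, so that mfn2-/- replicate 3 came close to the lowest wild-type library while mfn2-/- replicate 1 had no read. The means were 186 ± 114 and 31.4 ± 48.5 (SD, n = 4), the difference on the log2(normalized reads + 1) scale was -4.07 (SE 1.19), and the limma adjusted p was 0.0457. The call was a narrow one: leaving out any library other than mfn2-/- replicate 3 raised the limma adjusted p to between 0.0601 and 0.123, edgeR gave 0.189 and DESeq2 0.0718, and over all alternatives the adjusted p ranged from 0.00564 to 0.189 with the sign kept.

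The wild-type libraries also held far more RNA of connective tissue. The 12 fibroadipogenic marker genes summed to 180794 to 247843 normalized reads in the wild-type and 2752 to 4491 in the mfn2-/- libraries, and the 8 tendon markers to 36938 to 58437 and 306 to 407, with each list's genes present in the table. The 14 myogenic markers, all measured, summed to 15703 to 20381 in wild-type and 34648 to 46542 in mfn2-/- libraries. This sum does not stand for each marker. Sdc4 had means of 4271 in wild-type and 17473 in mfn2-/- libraries, and Des 2156 and 7969. Pax7 had 662 and 715, and Itga7 1249 and 621. The median genotype difference of the 14 was 0.18 on the log2(normalized reads + 1) scale, with 9 positive and 5 negative. Of them 4 were called, all higher, beside 3.99% of all tested genes called higher. Within the wild-type group the fibroadipogenic sum was higher in replicates 3 and 4 (237595 or more) than in replicates 1 and 2 (189048 or less), as were the mitotic genes, while within the mfn2-/- group it was higher in replicates 1 and 2 (4442 or more, against 2818 or less), where the mitotic genes were lower. The part of these cells in the results was not tested. Among the myogenic markers Myog, which encodes the differentiation factor myogenin and is named after its values were seen, was split between the same libraries as the mitotic genes. It gave 134, 159, 558 and 584 normalized reads in wild-type and 68.7, 98.0, 141 and 161 in mfn2-/- ASCs, with a difference of the effects (mfn2-/- minus wild-type, without minus with Y-linked reads) of 2.83 (SE 0.54, limma adjusted p 0.0325) that was lost without any 1 wild-type library or mfn2-/- replicate 1 or 2 (up to 0.241). The 12 macrophage markers summed to at most 204.9 normalized reads in any library, the 6 of 8 lymphocyte markers found in the table to at most 38.7 and the 5 of 7 neutrophil markers to at most 28.

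The differences of most tested members had opposite signs in the 2 kinds of library. Among libraries with Y-linked reads their median difference, mfn2-/- minus wild-type, was -1.81 on the log2(normalized reads + 1) scale with 3 of 30 positive, and among libraries without them it was 1.49 with 26 positive, whereas the medians of all tested genes were both -0.16. In 9 comparisons a member was at 0 in all libraries of 1 group, and with those groups set to 3 reads per library the medians were -1.66 and 1.34. The difference of the 2 effects (without minus with) was positive for 28 of 30 members and for 46% of all tested genes, with a median of 3.95 (2.64 at the bound) beside -0.14. Since the kinds are crossed with the replicate numbers, this quantity is also the excess of replicates 3 and 4 over replicates 1 and 2 added over both genotypes. A genotype effect that depends on the kind of library therefore cannot be told apart from a difference between these libraries that both genotypes share, beside 1 constant genotype effect.

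Few of these differences passed a test one by one. Among libraries with Y-linked reads 1 of 30 members was called, as lower (3.73% of all tested genes were called lower), and among those without them 6 were called, all higher (3.59% of all). The difference of the effects was called for Mki67 alone among the members, beside 173 of 11754 genes (1.47%), and it reached an unadjusted p under 0.05 for 15 of 30 members and 12% of all genes. With edgeR 2 members were called (1.49% of all genes) and with DESeq2 12 (7.09% of all), all with a positive difference.

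**Figure D3:**
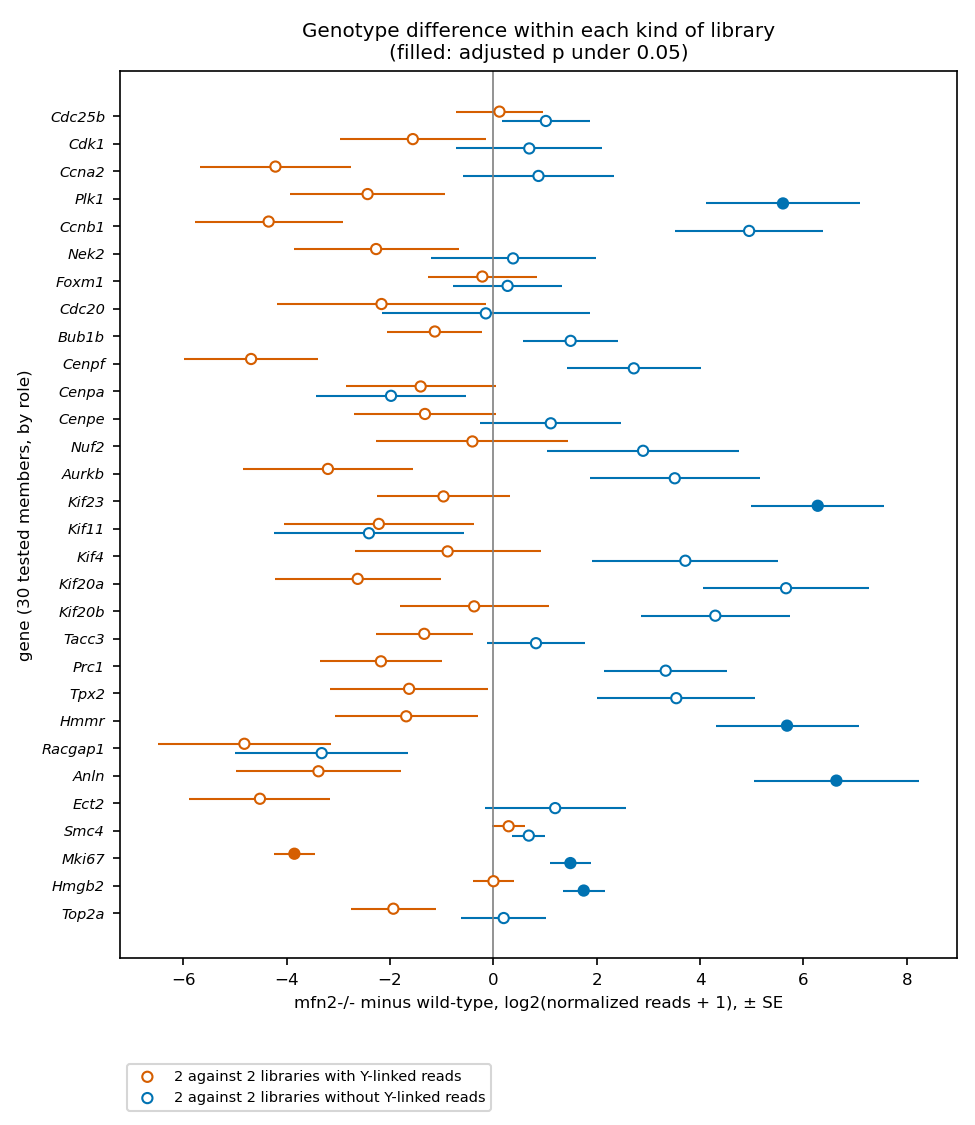
Difference between genotypes on the log2(normalized reads + 1) scale (horizontal axis, ± SE) for each of the 30 tested members, taken within the 4 libraries with Y-linked reads (orange) and the 4 without (blue). Filled points passed the test, and most members have an orange point left of 0 and a blue point right of it.

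Mki67 (GRCm38, chromosome 7, 135689784 to 135716361, minus strand) encodes Ki-67, the protein that coats mitotic chromosomes and is the usual marker of proliferating cells. It gave 95.5, 149, 930.2 and 727 normalized reads in wild-type and 56.0, 56.1, 435 and 262 in mfn2-/- replicates 1 to 4. Replicates 3 and 4 of both genotypes lay above all 4 of replicates 1 and 2, and the highest mfn2-/- library stayed below wild-type replicates 3 and 4. Over all libraries the means were 476 ± 417 and 202 ± 183 (SD, n = 4), a difference of -1.18 on the log2(normalized reads + 1) scale (SE 0.79, limma adjusted p 0.390) that did not pass the test. With library weights, which gave mfn2-/- replicate 4 and wild-type replicate 1 little influence, it was -2.90 (limma adjusted p 0.000309). Among libraries with Y-linked reads the wild-type mean was 14.8 times the mfn2-/- mean (log2 difference -3.85, SE 0.40, limma adjusted p 1.56e-04), and among those without them the mfn2-/- mean was 2.85 times the wild-type mean (log2 difference 1.49, SE 0.40, limma adjusted p 0.0438). The difference of these effects was 5.34 (SE 0.56, limma adjusted p 0.00163). It stayed under 0.05 with each library left out (0.00305 to 0.0319) and in the other alternatives save the fit with no intensity trend (0.0694). The higher level without Y-linked reads was less firm, since the limma adjusted p rose to between 0.0703 and 0.156 without wild-type replicate 1, 3 or 4 or mfn2-/- replicate 1, 2 or 3.

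**Figure D4:**
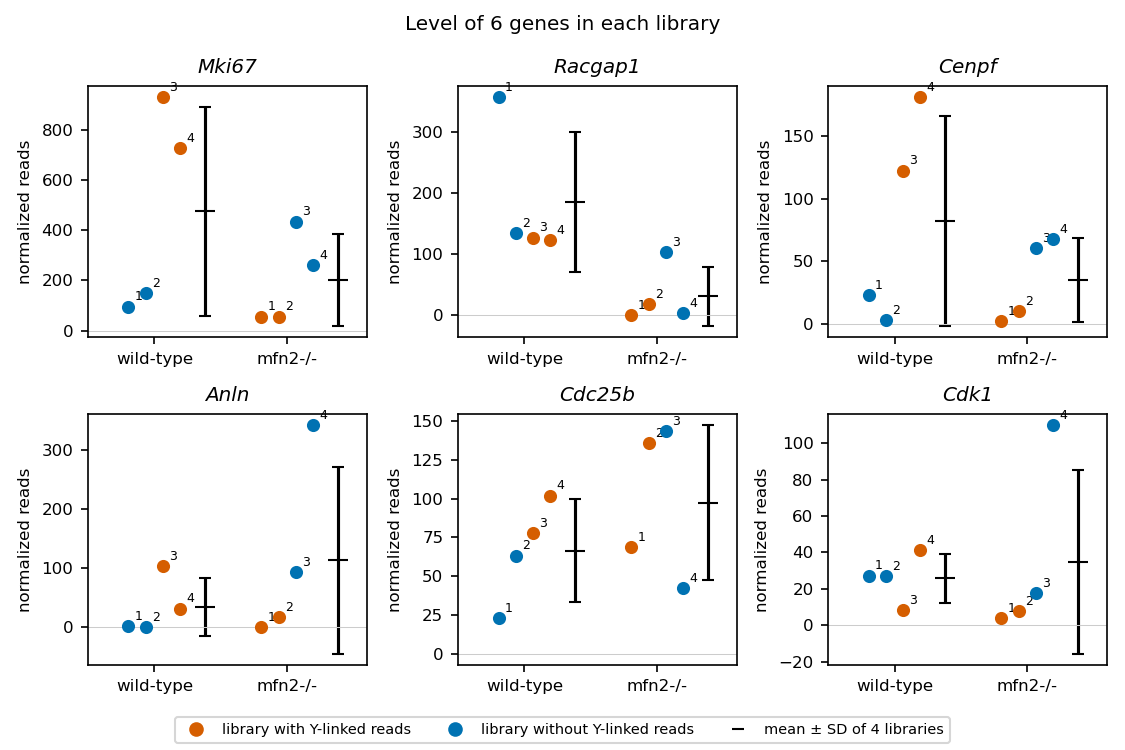
Level in normalized reads of 6 members in every library, coloured by the presence of Y-linked reads and numbered by replicate, with the mean ± SD of 4 libraries in black. Mki67, Cenpf and Anln are higher in replicates 3 and 4 of each genotype than in replicates 1 and 2, whereas Racgap1 is lower in all 4 mfn2-/- libraries and Cdc25b and Cdk1 overlap between genotypes.

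A pair of short elements is typical of the promoters of G2/M genes, the cell cycle genes homology region (CHR, TTTGAA), read by the DREAM and MuvB complexes, and the CCAAT box, read by NF-Y. The following windows belong to the 4 most abundant members whose RefSeq window held TTTGAA, are shown because these genes carry a large share of the summed level, and run from 250 bases before to 30 bases after the RefSeq start (GRCm38.p6), 5′ to 3′ on the gene's strand, with TTTGAA and CCAAT on either strand in capitals.
Mki67, chr7:135716350-135716629, minus strand: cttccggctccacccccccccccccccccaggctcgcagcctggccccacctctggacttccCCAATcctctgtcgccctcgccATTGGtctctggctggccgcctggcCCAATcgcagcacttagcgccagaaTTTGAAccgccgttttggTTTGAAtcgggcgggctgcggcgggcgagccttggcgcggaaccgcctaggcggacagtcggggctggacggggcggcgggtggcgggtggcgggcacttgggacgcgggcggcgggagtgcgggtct
Hmgb2, chr8:57511593-57511872, plus strand: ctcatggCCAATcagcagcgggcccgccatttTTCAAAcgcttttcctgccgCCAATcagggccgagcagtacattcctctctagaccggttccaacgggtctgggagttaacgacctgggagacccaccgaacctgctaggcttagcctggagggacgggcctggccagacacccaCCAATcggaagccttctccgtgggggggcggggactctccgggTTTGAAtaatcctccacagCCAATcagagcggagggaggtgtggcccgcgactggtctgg
Top2a, chr11:99024160-99024439, minus strand: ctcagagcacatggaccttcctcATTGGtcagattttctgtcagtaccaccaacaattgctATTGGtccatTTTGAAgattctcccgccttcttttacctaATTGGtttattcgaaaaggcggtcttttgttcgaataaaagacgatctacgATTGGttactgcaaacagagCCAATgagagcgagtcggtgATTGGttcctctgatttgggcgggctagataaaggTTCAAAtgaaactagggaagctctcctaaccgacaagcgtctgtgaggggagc
Racgap1, chr15:99651627-99651906, minus strand: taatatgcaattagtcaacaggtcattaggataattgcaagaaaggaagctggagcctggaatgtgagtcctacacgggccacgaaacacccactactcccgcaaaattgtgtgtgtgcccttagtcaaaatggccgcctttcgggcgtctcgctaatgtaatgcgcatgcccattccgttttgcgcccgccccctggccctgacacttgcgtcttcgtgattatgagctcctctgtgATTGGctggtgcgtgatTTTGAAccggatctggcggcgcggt
Mki67 has TTTGAA at positions -116 and -98 from the start and 3 CCAAT matches upstream of both. Hmgb2 and Top2a have 1 match close to the start, at -30 and -23, and 1 further out, with 4 and 6 CCAAT matches, while Racgap1 has a single TTTGAA, at position 6 after the start, and a single CCAAT at -12.

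Of the 44 members 36 had a window of 250 bases before to 50 after the start in the RefSeq table. TTTGAA on either strand was found for 26 of them, and for 20.2% of all 27025 symbols in the table. CCAAT on either strand was found for 28, against 41.1% of all symbols, and both for 22, against 8.97%. The motifs can share bases where they abut. These matches describe the letters of the windows, and Cdc25b, Tacc3, Cenpe, Nuf2, Ccnb1, Nek2, Nusap1, Birc5, Cks2 and Bub1 had no TTTGAA there.

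The genes of entry into mitosis differed among themselves. Cdk1, the mitotic kinase, gave 27.3, 27.0, 8.17 and 41.1 normalized reads in wild-type and 4.00, 7.90, 17.7 and 109.95 in mfn2-/- ASCs, with the highest value in the library with the fewest genes detected, mfn2-/- replicate 4. Cdc25b, a phosphatase that activates CDK1 and the most abundant gene of this role, gave 22.7, 63.3, 77.6 and 102 in wild-type and 68.7, 136, 144 and 42.1 in mfn2-/- ASCs, with overlapping groups (log2 difference 0.57, SE 0.62, limma adjusted p 0.617). Ccnb1, which encodes cyclin B1 and is named after its values were seen, had no read in replicates 1 and 2 of either genotype, gave 16.3 and 22.97 in wild-type and 12.5 and 69.6 in mfn2-/- replicates 3 and 4, and had a difference of the effects of 9.30 (SE 2.02, limma adjusted p 0.0587). Plk1, polo-like kinase and also named after its values were seen, gave 0, 0, 18.8 and 7.48 in wild-type and 0, 4.74, 31.7 and 71.5 in mfn2-/- ASCs. Without Y-linked reads it was at least 10.4-fold higher in mfn2-/- ASCs against a floor of 3 reads per library (limma adjusted p 0.0437), and with them both wild-type libraries were above both mfn2-/- ones. The other 6 genes of this role, Ccna2, Ccnb2, Cdc25c, Cks2, Aurka and Nek2, had at most 43.3 normalized reads in any library.

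Foxm1, the transcription factor that drives many G2/M genes, did not show the higher level of replicates 3 and 4. It gave 56.9, 16.6, 55.5 and 31.5 normalized reads in wild-type and 42.0, 30.8, 26.5 and 53.1 in mfn2-/- ASCs, where libraries with and without Y-linked reads overlapped in each genotype, with a genotype difference of 0.03 on the log2(normalized reads + 1) scale (SE 0.74, limma adjusted p 0.986) and a difference of the effects of 0.49 (SE 1.49, limma adjusted p 0.911). As a description over 8 libraries, Pearson's r of its log2 level with the mean of the other members was 0.062, whereas r was over 0.5 for 23 of the 44, led by Mki67 (0.901), Cenpf (0.864), Ttk (0.863) and Hmmr (0.817), and under 0.1 for 5, namely Foxm1, Cenpa, Aurka, Nusap1 and Cdc25c. The points share depth and normalization.

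The APC/C genes were scattered. Cdc20, the APC/C activator that starts anaphase, gave 27.3, 0, 25.3 and 36.3 normalized reads in wild-type and 3.33, 10.3, 22.1 and 0 in mfn2-/- ASCs. Cdca3, which helps degrade the mitotic inhibitor Wee1, gave 25.0, 0, 35.1 and 6.94 in wild-type and 0, 0, 11.8 and 0 in mfn2-/- ASCs. Neither gene separated wild-type replicates 3 and 4 from wild-type replicates 1 and 2, and Ube2c, the ubiquitin-conjugating enzyme of the APC/C, had reads in wild-type replicate 3 only.

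At the spindle checkpoint the most abundant gene was Bub1b, which encodes BUBR1, an inhibitor of the APC/C. It gave 38.7, 27.0, 49.0 and 37.9 normalized reads in wild-type and 22.0, 16.6, 75.9 and 114 in mfn2-/- ASCs, with the mfn2-/- libraries on both sides of all wild-type ones. Ttk, the kinase MPS1 that recruits the checkpoint proteins, gave 0, 0, 19.6 and 2.67 in wild-type and 0, 0, 16.9 and 0 in mfn2-/- ASCs, so that nearly all of its reads came from replicate 3 of each genotype. Bub1 had at most 9.80 normalized reads in a library.

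Among kinetochore genes Cenpf, which encodes a large protein of the outer kinetochore, was split between the same libraries as Mki67. It gave 22.7, 3.11, 122 and 181 normalized reads in wild-type and 2.00, 10.3, 60.4 and 67.8 in mfn2-/- ASCs, with replicates 3 and 4 above replicates 1 and 2 in both, and its difference of the effects was 7.41 (SE 1.83, limma adjusted p 0.101). Cenpa, the centromeric histone H3 variant, had another order, with 81.9, 42.5, 44.9 and 13.4 in wild-type and 8.67, 8.69, 48.6 and 3.67 in mfn2-/- ASCs. Cenpa was highest in wild-type replicate 1, and its difference of the effects was -0.57 (SE 2.05, limma adjusted p 0.928). Nuf2 and Ndc80, subunits of the microtubule-binding NDC80 complex, had 0 reads in wild-type replicates 1 and 2, and Cenpe, a kinetochore motor, reached 80.3 in mfn2-/- replicate 3.

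The chromosomal passenger complex corrects wrong attachments and later governs cytokinesis. Its kinase Aurkb gave 0, 9.33, 4.90 and 13.4 normalized reads in wild-type and 0, 0, 14.7 and 84.3 in mfn2-/- ASCs. Its subunit borealin, encoded by Cdca8, gave 0, 0, 17.97 and 27.2 in wild-type and 4.67, 7.90, 9.58 and 0 in mfn2-/- ASCs. Both genes had higher levels in wild-type replicate 4 than in wild-type replicate 1, but mfn2-/- replicate 4 held the most Aurkb and no Cdca8 or Birc5, the survivin gene.

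Of the mitotic kinesins, Kif23, the motor subunit of centralspindlin and the partner of Racgap1, gave 0, 0, 27.8 and 70.5 normalized reads in wild-type and 17.3, 28.4, 74.4 and 78.8 in mfn2-/- ASCs. The mfn2-/- libraries without Y-linked reads were at least 15.4-fold higher than the wild-type libraries of that kind, which had no read, against a floor of 3 reads per library (fitted log2 difference 6.28, SE 1.28, limma adjusted p 0.0147). Over all libraries its genotype difference was 2.66 (SE 1.46, limma adjusted p 0.286), and of the 2 centralspindlin genes Racgap1 alone was called. Kif11, the plus-end motor that separates the spindle poles, gave 34.1, 35.3, 66.1 and 57.7 in wild-type and 3.33, 41.1, 44.2 and 0 in mfn2-/- ASCs, with overlap. Kif4 reached 97.1 and Kif20a 56.8 normalized reads in mfn2-/- replicate 4, and Kif20b and Kif2c had at most 27.5 in any library.

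Among spindle microtubule proteins Tacc3, which stabilizes kinetochore fibres, gave 59.1, 39.4, 98.0 and 48.1 normalized reads in wild-type and 38.7, 18.2, 45.0 and 165 in mfn2-/- ASCs. Prc1, the crosslinker of the midzone, gave 2.27, 4.15, 169.9 and 82.8 in wild-type and 20.003, 32.4, 22.1 and 73.3 in mfn2-/- ASCs. Tacc3 had reads in every library and its groups overlapped, whereas Prc1 was near the floor in wild-type replicates 1 and 2 alone. Hmmr, a spindle assembly factor named after its values were seen, gave 0, 0, 38.4 and 38.5 in wild-type and 10.7, 11.9, 105 and 23.8 in mfn2-/- ASCs. Without Y-linked reads it was at least 13.01-fold higher in mfn2-/- ASCs (limma adjusted p 0.0311), whereas wild-type replicates 3 and 4 lay above all mfn2-/- libraries but replicate 3. Tpx2, the Aurora A activator, reached 122.5 in wild-type replicate 3, while Nusap1 and Dlgap5 stayed at or under 29.5.

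In cytokinesis Anln, which encodes the actin-binding scaffold anillin, had another pattern than Racgap1. It gave 2.27, 0, 105 and 32.1 normalized reads in wild-type and 0.667, 18.2, 93.6 and 343 in mfn2-/- ASCs, where mfn2-/- replicate 4 stood above all other libraries. Among libraries without Y-linked reads it had 1 read in the wild-type pair, and the fitted log2 difference was 6.64 (SE 1.598, limma adjusted p 0.0298), a size that depends on the pseudocount of 1 (4.11 to 8.52 over the alternatives). Ect2, the RhoA activator that centralspindlin binds, ran from 9.10 to 31.0 in wild-type and from 0 to 49.5 in mfn2-/- ASCs.

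The chromosome structure genes, Mki67 among them, were read in every library. Smc4, the condensin subunit, gave 318, 272, 375 and 398 normalized reads in wild-type and 476, 472, 662 and 339 in mfn2-/- ASCs, a difference of 0.49 on the log2(normalized reads + 1) scale (SE 0.25, limma adjusted p 0.249) and a difference of the effects of 0.39 (SE 0.45, limma adjusted p 0.746). Hmgb2, which encodes a chromatin protein abundant in cycling cells, gave 155, 218, 204 and 136 in wild-type and 227, 122, 561 and 684 in mfn2-/- ASCs, with mfn2-/- replicates 3 and 4 above all other libraries (log2 difference without Y-linked reads 1.75, SE 0.40, limma adjusted p 0.0259). Top2a, the topoisomerase that untangles sister chromatids, gave 146, 54.96, 199 and 226 in wild-type and 52.7, 56.9, 249.8 and 42.1 in mfn2-/- ASCs, with overlap in every comparison of the genotypes except that with Y-linked reads. Hmgb2 and Top2a are given in full because they are among the 5 most abundant members.

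The 6 calls among libraries without Y-linked reads (Mki67, Hmgb2, Plk1, Hmmr, Kif23 and Anln) were unstable in number. The number called was 1 with no filter, beside 251 of 18877 genes called higher. It was 3 with a mean of at least 50 (418 of 7640 genes) and 0 with library weights (93 of 11754 genes). Leaving out a library leaves 1 library in a group, and the members' median difference then stayed between 1.49 and 1.77. Kif23 alone passed with each of the 8 libraries left out (limma adjusted p 0.01001 to 0.04995), though not with library weights (0.115), and the highest adjusted p of the other 5 with a library left out was 0.117 for Hmgb2, 0.124 for Plk1, 0.0836 for Hmmr, 0.115 for Anln and 0.156 for Mki67. Where 1 library of a pair is left out, the remaining one is assumed to vary like the other groups. With Y-linked reads the members' median difference ran from -2.11 to -1.62 with a library left out.

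Other genes of the cell cycle were followed as lists. Of 97 further mitotic genes 64 were tested, and their median difference of the effects was 1.19. The difference was positive for 45, beside 46% of all tested genes. It was called for 4, all positive (Lmnb1, Smc2, Cep55 and Spc25), beside 1.47% of all tested genes. With no intensity trend it was called for no gene. Smc2, the condensin partner of Smc4, gave 40.9, 42.5, 230.3 and 169.9 normalized reads in wild-type and 47.3, 51.4, 152 and 409 in mfn2-/- ASCs, with replicates 3 and 4 above replicates 1 and 2 in both. Between genotypes 1 of the 64 was called, beside 10.4% of all tested genes. This was the chromokinesin Kif22, which was lower (log2 difference -3.96, SE 1.17, limma adjusted p 0.0468). Both kinds of call were narrow, since Kif22 was lost on leaving out any library other than mfn2-/- replicate 2 (limma adjusted p up to 0.127), and each of the 4 was lost without wild-type replicate 1 or 4 or mfn2-/- replicate 1 or 2 (up to 0.313 for Spc25).

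Of 50 S phase genes 43 were tested, with a median difference of the effects of 2.23. The difference was positive for 38, beside 46% of all tested genes. Uhrf1, which maintains DNA methylation at replication, was the 1 called, beside 1.47% of all tested genes. It gave 45.5, 41.5, 160.1 and 163 normalized reads in wild-type and 22.0, 15.0, 178 and 280.4 in mfn2-/- ASCs. Its difference of the effects was 5.42 (SE 0.93, limma adjusted p 0.0193). Between genotypes 2 replication genes rose, the clamp gene Pcna (log2 difference 1.13, SE 0.27, limma adjusted p 0.0185) and the helicase gene Mcm4 (1.13, SE 0.25, limma adjusted p 0.0128), and in both genes the groups did not overlap, with mfn2-/- above. The share called was 2 of 43, beside 10.4% of all tested genes. Mcm4 passed with each library left out (limma adjusted p 0.00104 to 0.0461), the adjusted p of Pcna rose to at most 0.0587 without mfn2-/- replicate 1, 2 or 3, and that of Uhrf1 to at most 0.178 without wild-type replicate 1, 3 or 4 or mfn2-/- replicate 1 or 2. With no intensity trend none of the 3 passed (0.0821 for Mcm4, 0.101 for Pcna and 0.0639 for Uhrf1).

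All 15 genes that restrain the cycle were tested, and 3 rose and 1 fell between genotypes, beside 10.4% of all tested genes called. Cdkn1a, which encodes the CDK inhibitor p21, gave 234, 305, 100.4 and 129 normalized reads in wild-type and 732, 731, 637 and 348 in mfn2-/- ASCs, so that its lowest mfn2-/- library stood above all wild-type libraries (log2 difference 1.74, SE 0.37, limma adjusted p 0.00920). Gadd45a, a stress gene, and Btg1, an antiproliferative gene, rose on the log2 scale by 1.40 (SE 0.32, limma adjusted p 0.0151) and 1.13 (SE 0.24, limma adjusted p 0.00881). Cdkn1c, the gene of the inhibitor p57, was lower at -1.68 (SE 0.39, limma adjusted p 0.0161). Cdkn1a and Btg1 passed with each library left out, whereas Gadd45a was at 0.0541 without mfn2-/- replicate 2 and Cdkn1c at most at 0.0561 without wild-type replicate 3 or 4 or mfn2-/- replicate 3. With no intensity trend none of these 4 passed (0.0694 for Cdkn1a, 0.0923 for Btg1, 0.0937 for Gadd45a and 0.111 for Cdkn1c). The difference of the effects had a median of 0.22 over the brakes, with 8 of 15 positive, and was called for 2 (1.47% of all tested genes), both negative, unlike the called mitotic and S phase genes. It was -1.23 for Btg1 (SE 0.20, limma adjusted p 0.0173) and -1.19 for its relative Btg2 (SE 0.18, limma adjusted p 0.0115). Both calls were lost with no trend (0.417 and 0.435), Btg1 also with quantile normalization (0.0606) and without wild-type replicate 1, 3 or 4 or mfn2-/- replicate 1 or 2 (up to 0.136), and Btg2 without any 1 wild-type library or mfn2-/- replicate 1 or 2 (up to 0.105). Cdkn1a was lowest in wild-type replicates 3 and 4, the wild-type libraries with the most mitotic transcripts, but among mfn2-/- libraries it was lowest in replicate 4 and between 637 and 732 normalized reads in the others.

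The genes whose log2 level over the 8 libraries was most like the mean of the members, among tested genes outside the set with a mean of at least 100, were Csnk2b (Pearson's r 0.979), Ubap2 (0.924), Cbl (0.919), Impad1 (0.916), Mcm2 (0.911), Gcap14 (0.908), Plxna1 (0.888), Gtf3c4 (0.881), Xpo1 (0.880) and Rb1 (0.861). Mcm2, a subunit of the replicative helicase, gave 91.0, 38.4, 207 and 255 normalized reads in wild-type and 28.004, 73.5, 318 and 191 in mfn2-/- ASCs. These 10 were picked for their likeness, so their r is a description. The median r was 0.472 over the tested S phase genes, 0.384 over the further mitotic genes, 0.109 over the brakes and 0.039 over all tested genes outside the set.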

How the data were processed

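Stranded libraries were prepared from total RNA (SMARTer pico kit). The submitters' processing notes name Trim Galore, HISAT2, featureCounts, DESeq2 and build mm9, with no versions. The deposited table holds a linear signal for each gene, namely reads divided by 1 size factor per library by the authors. Every value was a whole multiple of the library's step (tolerance 0.001 reads), which gave whole reads, at 1880464 to 7508215 per library. At this depth 1 read was worth 0.534 to 2.27 normalized reads, and a gene was at the floor at 3 reads. Handling of reads with several matches is not given in the sources used here. No molecular identifiers were used, so reads are not independent molecules.

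Two-sided tests used log2(value + 1) of the 11754 genes with a mean of at least 10 (limma 3.58.1 with an intensity trend, R 4.3.3), and p was adjusted over all of them by Benjamini-Hochberg, at 0.05. A 4-group model (genotype by presence of Y-linked reads) gave the within-kind differences and the difference of the effects. The added 1 understates changes between low values above 0. Where a whole group was at 0, the fitted size depends on the pseudocount and can be too large. With such a group set to 3 reads per library, the log2 difference of Kif23 without Y-linked reads was 3.77 in place of 6.28. Alternatives were pseudocounts of 0.1 and 10, no filter, a mean of at least 50, equal totals, upper-quartile and quantile normalization, no trend, library weights, the replicate number as a block, a Y-linked term, each library left out, edgeR 4.0.16 and DESeq2 1.42.0 on the whole reads and, chosen after seeing the data, leaving out the 2 shallowest libraries. Tests were also run on simulated data, with changes planted in 200 tested genes and the same mean in all libraries otherwise. The members differed between libraries of a genotype, so no statement here rests on that run. Python 3.11.15 made tables and figures.

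The members, the lists and the split by Y-linked reads were chosen with earlier results of these data known. Values in every library are given for members past the threshold between genotypes, the 2 most abundant of each role, and members past the threshold of the difference of the effects, and other genes by the largest change or the likeness rule; further names were chosen after their values were seen. Coordinates and exon lengths are from GENCODE M21 (GRCm38) and promoters from RefSeq (GRCm38.p6), since the table has no coordinates, and 8 members without a RefSeq window were Aurkb, Smc4, Cdc25c, Ccna2, Dlgap5, Tpx2, Kif20a and Foxm1.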

Additional observations from a re-analysis of the deposited data

Results flagged for a closer look

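In 6 of 42 groups of 4 libraries (19 named members, the member sum and Mfn2, in each genotype) 1 library lay far from the other 3. For independent, normally spread values about 2 would be so by chance. That number does not hold here, because the groups share libraries and many values are small counts. Where 3 libraries are at 0, any read in the remaining one is flagged. Wild-type replicate 1 held 357 normalized reads of Racgap1, while the remaining wild-type values were 123 to 135. Cdk1 was at 109.95 in mfn2-/- replicate 4, against 4.00 to 17.7. In mfn2-/- replicate 3 Cdca3 was at 11.8 and Ttk at 16.9, with 0 in the other 3 libraries, and Cenpa was at 48.6, against 3.67 to 8.69. Ttk was at 19.6 in wild-type replicate 3, against 0 to 2.67. Apart from Racgap1 these are genes with few reads.

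The genotype difference of Mki67 was -3.85 in libraries with and 1.49 in libraries without Y-linked reads, 5.34 apart on the log2(normalized reads + 1) scale (limma adjusted p 0.00163). The same 5.34 is the excess of replicates 3 and 4 over replicates 1 and 2 added over both genotypes, so a genotype effect that depends on the kind of library and a difference between these libraries that both genotypes share cannot be told apart. The summed level of the 44 genes had a log2 ratio of mfn2-/- to wild-type means of -1.32 with Y-linked reads and 1.18 without, each pair of mfn2-/- libraries lying wholly on 1 side of the wild-type pair, and this difference was not tested. The presence of Y-linked reads cannot be told apart from any other difference between libraries 1 and 2 and libraries 3 and 4 of a genotype.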

How the results depend on the processing

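Depth limits most members, since 14 of 44 lay below the minimum and 31 had a library at 0. Between genotypes 1217 genes were called. The total was 633 with no trend, 3037 with library weights, and 671 to 1331 with a library left out (671 without wild-type replicate 3 and 749 without wild-type replicate 4). The single member called became 0 with a pseudocount of 0.1, no filter, upper-quartile or quantile normalization, no trend, edgeR, DESeq2 or without the 2 shallowest libraries, 0 to 1 with a library left out, and 6 with library weights, all lower, when the median was -1.19. Library weights set mfn2-/- replicate 4 at 0.167 and wild-type replicate 1 at 0.346. The median ran from -0.34 to 0.49 with a library left out.

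A difference of the effects was called for 173 genes. The total was 109 with no filter and 109 with quantile normalization, 0 with no trend (1416 had an unadjusted p under 0.05 with the trend; edgeR called 175), 833 with DESeq2, 591 without the 2 shallowest libraries, and 31 to 1347 with a library left out. The 1 member became 2 with a pseudocount of 0.1, 3 with 10, 0 with no trend, 2 with edgeR, 12 with DESeq2, 7 without the 2 shallowest libraries and 1 to 8 with a library left out. The median of 3.95 became 5.17 with a pseudocount of 0.1, 2.07 with 10, 2.69 with no filter, 2.15 with a mean of at least 50, and 2.95 to 4.17 with a library left out.

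With Y-linked reads 2 members were called lower with a pseudocount of 10, beside 563 of 11754 genes called lower. There were also 2 with a mean of at least 50 (445 of 7640 genes) and 2 with no trend (202 of 11754). With library weights 10 were called lower, beside 1524 of 11754 genes. The median of -1.81 became -1.02 with a pseudocount of 10 and -1.37 with quantile normalization. It was -1.63 without the 2 shallowest libraries and -2.11 to -1.62 with a library left out. Without Y-linked reads 1 member was called higher with no filter, beside 251 of 18877 genes, and 3 with a mean of at least 50 (418 of 7640). With library weights 0 were called, beside 93 of 11754 genes called higher (1850 of all genes had an unadjusted p under 0.05). The median of 1.49 was 1.97 without the 2 shallowest libraries and 1.49 to 1.77 with a library left out. The log2 ratio of the summed levels was -1.32 with and 1.18 without these reads. It was -1.87 and 1.603 as a mean of centred log2 values and -1.55 and 1.73 without the 5 most abundant members. Over all libraries it stayed between -0.13 and 0.15. Mfn2 passed with library weights alone (-0.87, limma adjusted p 0.0099; range over the alternatives 0.0099 to 0.178), and its log2 change was -1.04 to -0.80 with a library left out. The called members and the genes named as called in the other lists kept their sign under each alternative run. Upper-quartile and quantile normalization moved the median of all genes from -0.16 to 0.05 and 0.08. The cause of these changes was not tested.

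Libraries with the same number did not deviate together (r over all genes -0.035, -0.053, 0.038 and -0.111 for numbers 1 to 4). With the replicate number as a block 1043 genes were called and 1 member, Mki67 (-1.18, limma adjusted p 0.0382), while Racgap1 was at 0.0604. No paired analysis was possible for the difference of the effects because number and presence of Y-linked reads coincide within a genotype.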
